A study of Mus musculus with 16 samples.

Results

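The growth and angiogenic factors measured here are 8 secreted or membrane-bound ligands, Igf1, Pdgfa, Pdgfb, Pdgfc, Tgfb1, Vegfa, Vegfb and Hbegf, and their transcripts were followed in macrophages of the mouse heart and in blood monocytes. They were taken by gene symbol from the probe annotation of the arrays, which named 27449 genes, and 15 of the 39429 probes belonged to them. The 4 sorted groups, each with 4 arrays, came from untreated C57BL/6 mice, and the labels used here give no age or sex. All 3 macrophage groups were live cells from minced and digested heart, sorted as CD45+ MerTK+ CD64+ and negative for Ly6c, and each array had 1 ng of RNA. CCR2+ Mac were high for CCR2 and for MHC class II, MHC-IIHi Mac were CCR2-negative, high for MHC class II and low for CD11c, and MHC-IIlo Mac were negative for CCR2 and CD11c and low for MHC class II. Ly6cHi Mono were monocytes from blood. The labels do not say that replicates came from separate mice, so p-values measure the spread between these samples, which may be technical. Heart cells went through digestion and blood cells are not said to have done so, so tissue, preparation and cell type cannot be told apart in the comparisons with monocytes. Each group always occupied its own position on the slide, and the effect of that position cannot be told apart from the group in any comparison, those between macrophage groups included.

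Macrophages in the heart are held to act on their neighbours partly through such ligands. Insulin-like growth factor 1 signals through a receptor tyrosine kinase for growth and survival, platelet-derived growth factors act on fibroblasts and mural cells, and the vascular endothelial growth factors act on vessels. Transforming growth factor beta 1 is released in a latent form that has to be activated and drives matrix production, and heparin-binding EGF-like growth factor is made as a membrane protein that proteases shed.

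Levels are given as log2 of the scanner's processed signal minus the 75th percentile of that array, so that 0 is a signal at that percentile. These levels serve comparison between samples for the same probe and not between probes. Between 52.8% and 69.3% of spots were well above background on an array, with 52.8% to 60.1% on monocyte arrays, and arrays of the same group correlated at 0.938 to 0.981. Of the transcripts of the sorting markers, Ccr2, H2-Ab1 and Mertk followed the scanner labels. Among the 9 sort markers tested, 7 were higher and 0 lower in CCR2+ than in MHC-IIlo Mac, where 1.50% of all genes were higher. The list also holds markers for which the macrophage groups were sorted alike. Ccr2 averaged 0.56 ± 0.18 in CCR2+ Mac, -3.31 ± 0.53 in MHC-IIHi Mac, -3.91 ± 0.76 in MHC-IIlo Mac and 1.06 ± 0.15 in Ly6cHi Mono (SD, n = 4 each). The MHC class II gene H2-Ab1 averaged 5.77 ± 0.06, 5.75 ± 0.13 and 3.94 ± 0.64 in CCR2+, MHC-IIHi and MHC-IIlo Mac, against 3.90 ± 0.24 in Ly6cHi Mono, and Mertk failed the scanner's above-background flag on all 4 monocyte arrays. Of the 16 columns of deposited values, 16 matched best the scanner array of a sample with another label, and for 12 of them that sample was in another group, so only the scanner files with their own labels were used.

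The probes behind the results are named by the array maker's ID and by the position of their first base in the transcript they were designed on. Igf1 had 5 probes on chromosome 10, and their first 30 bases are shown because the probes did not all give the same picture. A_55_P2085984 starts at base 889 and A_55_P2031631 at base 909 of the same transcript, and they share 40 of their 60 bases.
A_55_P2085984: cctaccaaataacaataataagtccaataa
A_55_P2031631: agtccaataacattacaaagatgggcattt
A_55_P2031636: agaaatgtaaatggaataagaggtcagctg
A_55_P2085974: ctcctgattgtatttgaagtggttattcaa
A_55_P2085979: aaccattaaaaacatgccaccaagaccttc
A_55_P2031636 starts at base 3252 and A_55_P2085974 at base 6909 of that transcript. A_55_P2085979 was designed on another Igf1 transcript record, at its base 1027.

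For Tgfb1 on chromosome 7 the probe lies in coding sequence and is shown whole, since Tgfb1 is the ligand that was lower in macrophages.
Tgfb1 A_51_P390715: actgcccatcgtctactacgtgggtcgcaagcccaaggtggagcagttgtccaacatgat
The Pdgfa probes A_55_P2007470 and A_55_P2125588 share 51 of their 60 bases, so their agreement is that of nearly the same sequence. Their first 30 bases are as follows, read from the scanner files for chromosome 5.
A_55_P2007470: actgtagcactcagagagacagtgagaaag
A_55_P2125588: ctcagagagacagtgagaaagcttccttgt

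Set against Ly6cHi Mono, Igf1, Pdgfa, Pdgfb, Pdgfc and Vegfb were higher in each of the 3 macrophage groups, Tgfb1 was lower in each, and Hbegf did not pass the test in any. Vegfa passed only in CCR2+ Mac. The calls of Pdgfc in CCR2+ and MHC-IIHi Mac, Pdgfb in MHC-IIlo Mac and Vegfa in CCR2+ Mac were lost under some alternatives, given below. By limma with Benjamini-Hochberg adjustment over 21980 genes, 6 of the 8 were higher and 1 lower in CCR2+ Mac, where 21.7% of all genes tested were called (9.97% higher, 11.7% lower). With normexp background correction 1555 of 5183 calls were higher there, against 2191 of 4760. In MHC-IIHi Mac 5 were higher and 1 lower, where 21.4% of all genes were called (2208 genes higher, 2499 lower). In MHC-IIlo Mac 5 were higher and 1 lower, where 21.3% were called (10.1% higher, 11.2% lower). The median log2 difference of the 8 was 1.44, 1.05 and 0.93 in CCR2+, MHC-IIHi and MHC-IIlo Mac, beside -0.09, -0.05 and -0.05 over all genes. With Igf1 and Pdgfc set at the lowest value their dim monocyte signal allows, the median of the 8 was 1.04, 0.92 and 0.93. The 8 were chosen with earlier results of these data known, so the values beside all genes are a description and no test of the set. In such bulk samples a change in the RNA per cell and a change in the share of cells that carry the transcript cannot be told apart.

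**Figure D1:**
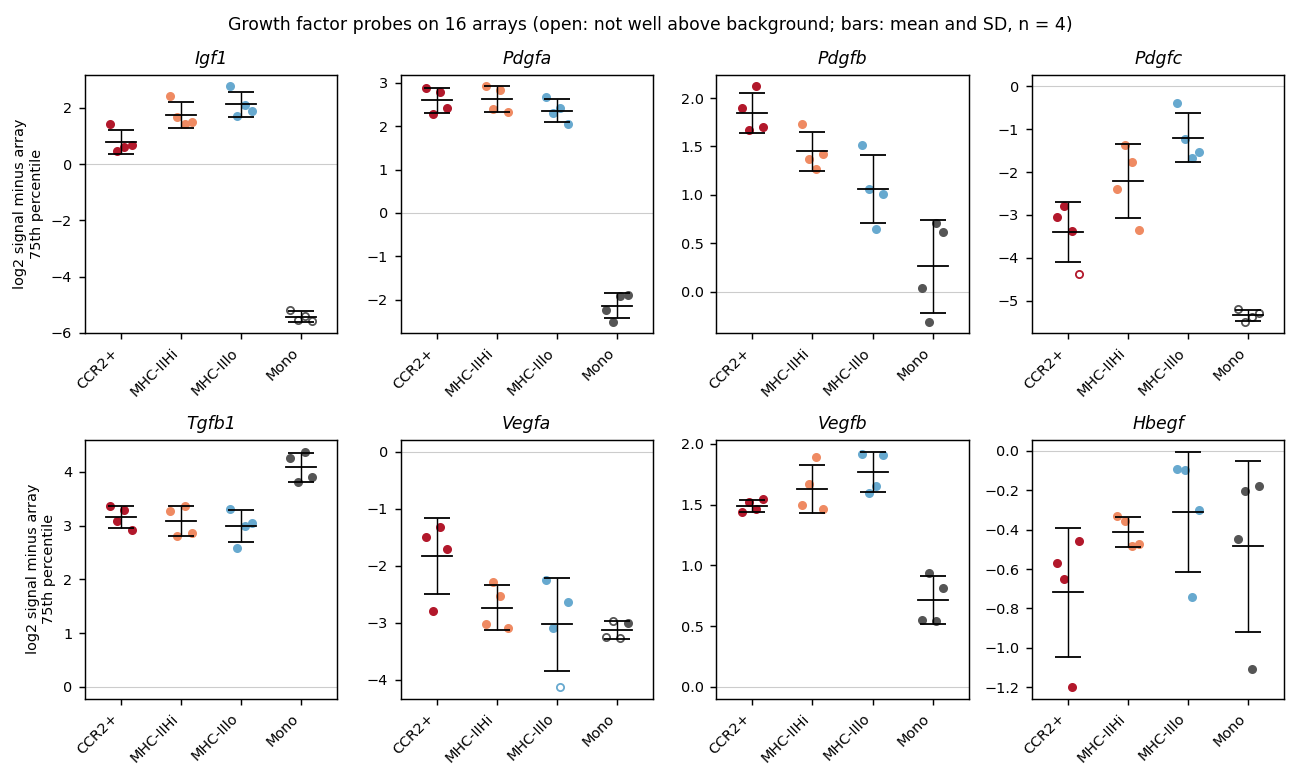
Normalised log2 signal (vertical axis, log2 signal minus the array's 75th percentile) of the probe used for each of the 8 ligands, by group, with 4 arrays as points and the mean and SD as bars; open points were not well above background. Pdgfa lies between 2.06 and 2.92 on all macrophage arrays and between -2.51 and -1.88 on all monocyte arrays, while Tgfb1 is higher on all monocyte arrays.

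Igf1, the ligand of the IGF1 receptor, had levels of 1.41, 0.46, 0.61 and 0.67 in replicates 1 to 4 of CCR2+ Mac. The MHC-IIHi Mac arrays had 2.41, 1.68, 1.42 and 1.48, the MHC-IIlo Mac arrays 2.76, 1.72, 2.11 and 1.89, and the Ly6cHi Mono arrays -5.17, -5.55, -5.38 and -5.56. All macrophage arrays lay far above all monocyte arrays, and on none of the 4 monocyte arrays was this probe well above background. Because the monocyte signal is then only a bound, Igf1 was at least 15.2-fold higher in CCR2+ Mac than in Ly6cHi Mono (adjusted p = 6.56e-10, limma). The bound was at least 29.6-fold in MHC-IIHi Mac (adjusted p = 9.56e-11) and at least 38.3-fold in MHC-IIlo Mac (adjusted p = 5.37e-11). A bound sets the macrophage mean against the lowest signal that counted as well above background on the monocyte arrays, or the probe's own signal where that was higher. An adjusted p beside a bound, here and below, tests the fitted difference from the dim values and not the bound itself. This Igf1 probe passed the filter through the macrophage arrays alone.

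Among the macrophages Igf1 was lowest in CCR2+ Mac. Its level averaged 0.79 ± 0.42 there, 1.75 ± 0.45 in MHC-IIHi Mac and 2.12 ± 0.46 in MHC-IIlo Mac (SD, n = 4 each), and the CCR2+ arrays overlapped neither of the other sets. The log2 difference between CCR2+ and MHC-IIlo Mac was -1.33 ± 0.28 (SE), a 2.52-fold lower signal, and passed the test (adjusted p = 0.0156, limma). It was negative on all 4 slides, from -1.50 to -1.22. The call was lost, with the difference between -1.37 and -1.23, under median scaling (adjusted p = 0.0986), normexp background correction (0.0576), a fit to those groups alone (0.0770), without CCR2+ Mac replicate 2 (0.0579) and without CCR2+ Mac replicate 3 (0.0518). Against MHC-IIHi Mac the difference was -0.96 ± 0.28, from -1.22 to -0.82 on the 4 slides, with adjusted p = 0.147, and with the slide as a block it passed (adjusted p = 0.0047). MHC-IIHi and MHC-IIlo Mac differed by -0.37 (95% confidence interval -0.97 to 0.23), which did not pass.

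The other Igf1 probes divided into a majority and an exception. A_55_P2085984, A_55_P2031636 and A_55_P2085974 likewise failed the above-background flag on all 4 monocyte arrays and passed it on all macrophage arrays. Their bounds against Ly6cHi Mono in CCR2+, MHC-IIHi and MHC-IIlo Mac were at least 10.5-, 19.1- and 26.3-fold for A_55_P2085984 and at least 8.82-, 16.8- and 22.6-fold for A_55_P2031636. The dimmest, A_55_P2085974, gave at least 1.06-, 2.27- and 3.48-fold. CCR2+ Mac were lower than MHC-IIlo Mac by each of them, with log2 differences of -1.32 (adjusted p = 0.000844), -1.35 (0.0496) and -1.71 (0.00174) in a limma fit over all probes. A_55_P2085984 also called CCR2+ Mac lower than MHC-IIHi Mac, by -0.86 (adjusted p = 0.0394). Probe A_55_P2085979, designed on the other transcript record, behaved differently. It was well above background on all 4 monocyte arrays, at -0.84, -0.95, -1.58 and -1.01. Its difference from Ly6cHi Mono was 0.40 in CCR2+ Mac (adjusted p = 0.175), 0.64 in MHC-IIHi Mac (0.0302) and 0.95 in MHC-IIlo Mac (0.00233). With it, CCR2+ minus MHC-IIlo Mac was -0.55 and did not pass (adjusted p = 0.219). The order of the macrophage groups was the same with all 5 probes, CCR2+ Mac lowest and MHC-IIlo Mac highest by mean.

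**Figure D2:**
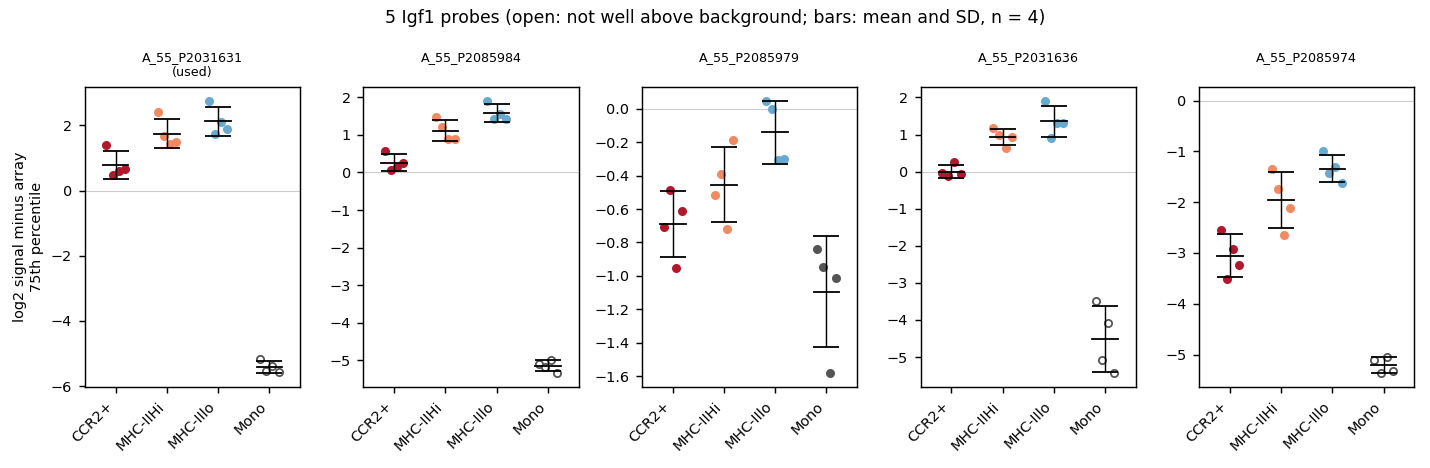
Normalised log2 signal of the 5 Igf1 probes (1 panel each, vertical axes differ) by group, 4 arrays as points with mean and SD; open points were not well above background. Monocyte arrays are open in 4 panels and filled in the panel of A_55_P2085979, where they lie between -1.58 and -0.84.

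Pdgfa encodes the A chain of platelet-derived growth factor, which acts through the PDGF alpha receptor. The Pdgfa probe gave 2.89, 2.29, 2.80 and 2.41 in CCR2+ Mac, 2.92, 2.41, 2.83 and 2.32 in MHC-IIHi Mac, 2.67, 2.30, 2.42 and 2.06 in MHC-IIlo Mac, and -2.24, -2.51, -1.92 and -1.88 in Ly6cHi Mono. Every macrophage array was above every monocyte array, and the macrophage groups overlapped each other. The difference from Ly6cHi Mono was 4.73 ± 0.22 in CCR2+ Mac (26.6-fold, adjusted p = 8.05e-10, limma), 4.76 ± 0.22 in MHC-IIHi Mac (27.1-fold, 5.23e-10) and 4.50 ± 0.22 in MHC-IIlo Mac (22.6-fold, 8.92e-10). This was the ligand with the largest difference among those measured above background in all 4 groups. CCR2+ minus MHC-IIHi Mac was -0.02, with a 95% confidence interval from -0.49 to 0.45, and CCR2+ minus MHC-IIlo Mac was 0.23 (-0.24 to 0.70).

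Pdgfb encodes the B chain, which binds both PDGF receptors. Its levels were 1.90, 1.67, 2.12 and 1.70 in CCR2+ Mac, 1.73, 1.37, 1.27 and 1.42 in MHC-IIHi Mac, 1.52, 1.06, 0.65 and 1.01 in MHC-IIlo Mac, and 0.04, -0.31, 0.71 and 0.61 in Ly6cHi Mono. The CCR2+ and MHC-IIHi arrays were above all monocyte arrays, and the lowest MHC-IIlo array lay within the monocyte range. The difference from Ly6cHi Mono was 1.59 ± 0.25 in CCR2+ Mac (3.00-fold, adjusted p = 0.000249), 1.19 ± 0.25 in MHC-IIHi Mac (2.28-fold, 0.0023) and 0.80 ± 0.25 in MHC-IIlo Mac (1.74-fold, 0.0288). The call in MHC-IIlo Mac was lost under median scaling (adjusted p = 0.142), in a fit to those groups alone (0.108), and without Ly6cHi Mono replicate 1 (0.0805) or 2 (0.0954) or MHC-IIlo Mac replicate 1 (0.0844), 2 (0.0598) or 4 (0.0542). Its other probe, A_55_P2047310, was higher than in Ly6cHi Mono by 2.01, 1.84 and 1.45 in CCR2+, MHC-IIHi and MHC-IIlo Mac, with adjusted p of at most 0.000238. Between macrophage groups Pdgfb was higher in CCR2+ than in MHC-IIlo Mac on all 4 slides, and the groups did not overlap, but the difference of 0.79 did not pass (adjusted p = 0.132).

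Pdgfc encodes a ligand of the PDGF alpha receptor that is secreted latent and needs proteolytic cleavage. Its levels were -3.06, -2.78, -3.38 and -4.37 in CCR2+ Mac, -2.38, -1.36, -1.76 and -3.35 in MHC-IIHi Mac, -0.38, -1.22, -1.67 and -1.53 in MHC-IIlo Mac, and -5.19, -5.49, -5.38 and -5.29 in Ly6cHi Mono. All macrophage arrays were above all monocyte arrays, none of the monocyte arrays was well above background, and neither was replicate 4 of CCR2+ Mac. CCR2+ Mac were lower than MHC-IIlo Mac by -2.20 ± 0.42 on the log2 scale, a 4.59-fold lower signal, without overlap and on all 4 slides (adjusted p = 0.00755, limma). That fold rests on dim CCR2+ arrays, with processed signals of 83.8 to 253, and its size is uncertain. Under the alternatives the difference ran from -2.40 to -1.52, and the call held in each (limma, adjusted p of at most 0.0340). Together with Igf1 this made 2 of the 8 ligands lower and 0 higher in CCR2+ than in MHC-IIlo Mac, where 2.77% of all genes were called (1.50% higher, 1.27% lower). Pdgfc in MHC-IIHi Mac lay between and overlapped both, with CCR2+ minus MHC-IIHi Mac at -1.18 (adjusted p = 0.274) and MHC-IIHi minus MHC-IIlo Mac at -1.02.

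Against Ly6cHi Mono, Pdgfc was at least 3.83-fold higher in MHC-IIlo Mac (adjusted p = 2.5e-06) and at least 1.90-fold higher in MHC-IIHi Mac (4.8e-05). In CCR2+ Mac it was called higher (adjusted p = 0.00336), but no fold is given because the lowest signal well above background was no dimmer than the CCR2+ mean. With normexp background correction the calls in CCR2+ Mac (adjusted p = 0.892) and MHC-IIHi Mac (0.0983) were lost.

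**Figure D3:**
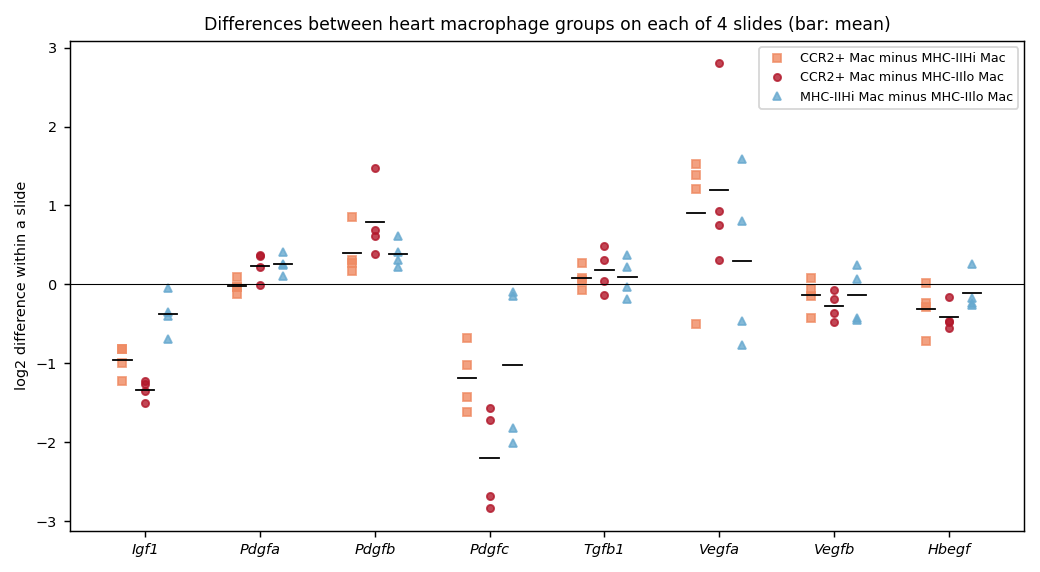
Log2 difference between pairs of macrophage groups on each of the 4 slides (points) and their mean (bars), for the 8 ligands. For Igf1 and Pdgfc the 4 points of CCR2+ minus MHC-IIlo Mac all lie below 0, and for Pdgfb they all lie above 0, between 0.38 and 1.47.

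Vegfa, the main vessel growth factor acting on the receptors Flt1 and Kdr, was dim. Its brighter probe, A_52_P249424, had levels of -1.50, -2.79, -1.32 and -1.71 in CCR2+ Mac, -3.02, -2.29, -2.53 and -3.10 in MHC-IIHi Mac, -2.25, -3.10, -4.12 and -2.64 in MHC-IIlo Mac, and -3.25, -2.98, -3.27 and -3.01 in Ly6cHi Mono. The probe was well above background on all CCR2+ and MHC-IIHi arrays, on 3 of 4 MHC-IIlo arrays and on 1 of 4 monocyte arrays. CCR2+ arrays were above all monocyte arrays, and the other groups overlapped the monocytes. The difference from Ly6cHi Mono was 1.30 ± 0.38 in CCR2+ Mac (adjusted p = 0.0219, limma), with no fold given because 3 of 4 monocyte arrays were dim, and neither 0.39 in MHC-IIHi Mac nor 0.10 in MHC-IIlo Mac passed (adjusted p = 0.569 and 0.909). The CCR2+ call was lost under quantile normalization (adjusted p = 0.0512), normexp (0.185, at a difference of 0.48) and the mean of both probes (0.117). It was also lost without CCR2+ Mac replicate 1 (0.0593), 3 (0.0690) or 4 (0.0537) and without Ly6cHi Mono replicate 1 (0.0532) or 3 (0.0534). CCR2+ minus MHC-IIlo Mac was 1.20 ± 0.38 with adjusted p = 0.139, and it passed without CCR2+ Mac replicate 2 (adjusted p = 0.0439). The second Vegfa probe, A_52_P638895, correlated with the first at 0.16 over 16 arrays. Its values spread from -5.83 to 0.90 within MHC-IIHi Mac, and no comparison of it passed.

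Vegfb encodes a ligand of Flt1. It had levels of 1.44, 1.52, 1.47 and 1.55 in CCR2+ Mac, 1.49, 1.67, 1.89 and 1.46 in MHC-IIHi Mac, 1.92, 1.60, 1.65 and 1.91 in MHC-IIlo Mac, and 0.55, 0.94, 0.54 and 0.82 in Ly6cHi Mono. All macrophage arrays were above all monocyte arrays. The difference from Ly6cHi Mono was 0.78 ± 0.16 in CCR2+ Mac (1.72-fold, adjusted p = 0.00294), 0.92 ± 0.16 in MHC-IIHi Mac (1.89-fold, 0.000745) and 1.06 ± 0.16 in MHC-IIlo Mac (2.08-fold, 0.000211). Between macrophage groups no difference of Vegfb passed.

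Tgfb1 ran the other way. The probe had levels of 3.36, 3.08, 3.29 and 2.92 in CCR2+ Mac, 3.28, 2.81, 3.36 and 2.86 in MHC-IIHi Mac, 3.32, 2.59, 2.98 and 3.05 in MHC-IIlo Mac, and 4.25, 3.81, 4.37 and 3.91 in Ly6cHi Mono. At these scaled levels every macrophage array was below every monocyte array, and the macrophage groups overlapped each other. Before scaling, the processed signal overlapped between CCR2+ Mac, at 13110 to 15420, and Ly6cHi Mono, at 14062.5 to 17550. It was 10102 to 13670 in MHC-IIHi Mac and 9566 to 13189 in MHC-IIlo Mac. The 75th percentile over an array's spots was 819 to 996 in Ly6cHi Mono. It was 1380 to 1670, 941 to 1660 and 1160 to 1610 in CCR2+, MHC-IIHi and MHC-IIlo Mac. The difference from Ly6cHi Mono was -0.92 ± 0.21 in CCR2+ Mac (1.90-fold lower, adjusted p = 0.00505, limma), -1.01 ± 0.21 in MHC-IIHi Mac (2.01-fold lower, 0.00244) and -1.10 ± 0.21 in MHC-IIlo Mac (2.15-fold lower, 0.00117). It was negative on all 4 slides in each group, and these calls held under every alternative tried, each of which also scaled the arrays.

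Hbegf, the EGF receptor ligand, showed no difference past the threshold. Its levels ran from -1.20 to -0.46 in CCR2+ Mac, from -0.49 to -0.33 in MHC-IIHi Mac, from -0.74 to -0.09 in MHC-IIlo Mac, and from -1.11 to -0.18 in Ly6cHi Mono. These ranges overlapped each other. The log2 difference from Ly6cHi Mono was -0.23 in CCR2+ Mac (95% confidence interval -0.74 to 0.27), 0.07 in MHC-IIHi Mac (-0.43 to 0.57) and 0.18 in MHC-IIlo Mac (-0.33 to 0.68).

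**Figure D4:**
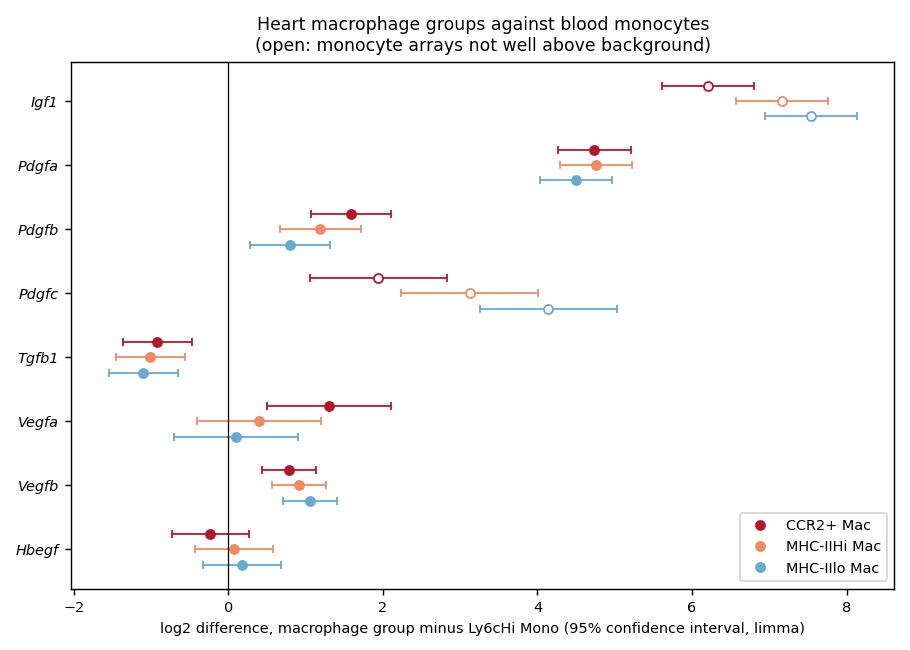
Log2 difference from Ly6cHi Mono (horizontal axis) with 95% confidence intervals from limma for the 8 ligands in the 3 macrophage groups; open points are genes whose monocyte arrays were not well above background, so their fitted difference is no measured fold. Pdgfa lies between 4.50 and 4.76 in all 3 groups, Tgfb1 lies left of 0, and the intervals of Hbegf include 0.

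Between CCR2+ and MHC-IIHi Mac limma called 0 of the 8 ligands, where 1.25% of all genes were called (0.641% higher, 0.610% lower). At an unadjusted p under 0.05 there were 3, Igf1, Pdgfc and Vegfa, beside 2178 of all 21980 genes. With the slide as a block 1 was called, Igf1, which probe A_55_P2085984 also called without the block. Between MHC-IIHi and MHC-IIlo Mac 0 of 8 were called, where 0.0682% of all genes were called (11 genes higher, 4 lower), and 1 had an unadjusted p under 0.05, Pdgfc, beside 858 of all 21980 genes. The median differences of the 8 were -0.08 (CCR2+ minus MHC-IIHi), -0.05 (CCR2+ minus MHC-IIlo) and -0.01 (MHC-IIHi minus MHC-IIlo), beside -0.02, -0.04 and -0.01 over all genes. The mean of the 3 macrophage groups minus Ly6cHi Mono had 5 ligands higher and 1 lower, where 27.4% of all genes were called (12.4% higher, 14.9% lower).

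Receptors and binding partners of these ligands were measured in the same cells. Of 29 listed, 23 were tested, and 9, 6 and 7 were higher and 1, 1 and 0 lower in CCR2+, MHC-IIHi and MHC-IIlo Mac than in Ly6cHi Mono, with median differences of 0.52, 0.45 and 0.47 (0.48, 0.32 and 0.30 with dim genes at their bound). Of all genes, 9.97% were higher and 11.7% lower in CCR2+ Mac, and 10.1% and 11.2% in MHC-IIlo Mac. In MHC-IIHi Mac 2208 of 21980 were higher and 2499 lower. These shares also stand beside the counts against Ly6cHi Mono in the lists below. Igfbp4, which binds IGF1 in the extracellular space, averaged 0.17 ± 0.17 in CCR2+ Mac, 1.33 ± 0.34 in MHC-IIHi Mac and 1.95 ± 0.33 in MHC-IIlo Mac, against -3.60 ± 1.37 in Ly6cHi Mono, where 2 of 4 arrays were well above background. It was higher than in Ly6cHi Mono in all 3 groups (adjusted p of 4.01e-05 in CCR2+, 1.72e-06 in MHC-IIHi and 4.26e-07 in MHC-IIlo Mac), and CCR2+ minus MHC-IIlo Mac was -1.78 (adjusted p = 0.0657). Igf1r failed the above-background flag on all 4 monocyte arrays and did not pass in any comparison.

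The TGF-beta receptor Tgfbr1 was higher in CCR2+ than in MHC-IIlo Mac by 1.45 (adjusted p = 0.000708), at 1.32 ± 0.18 against -0.13 ± 0.14. It exceeded Ly6cHi Mono, at -0.43 ± 0.40, in CCR2+ Mac by 1.75 (adjusted p = 2.06e-05) and in MHC-IIHi Mac by 1.28 (0.0003), and not in MHC-IIlo Mac (0.30, adjusted p = 0.381). Tgfbr2 was higher than in Ly6cHi Mono by 1.47, 1.94 and 2.13 in CCR2+, MHC-IIHi and MHC-IIlo Mac, and the accessory receptor Eng by 1.85, 1.98 and 1.64, with adjusted p of at most 0.000135. Nrp2, a coreceptor of vascular endothelial growth factors, was lower in CCR2+ than in MHC-IIlo Mac by -1.16 (adjusted p = 0.0288) and higher than in Ly6cHi Mono in all 3 groups, by 1.59, 2.36 and 2.75. Flt1, the receptor shared by Vegfa and Vegfb, was lower than in Ly6cHi Mono in CCR2+ Mac (-0.79, adjusted p = 0.0210) and MHC-IIHi Mac (-0.84, 0.0145), and in MHC-IIlo Mac the difference of -0.60 did not pass (0.0772).

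**Figure D5:**
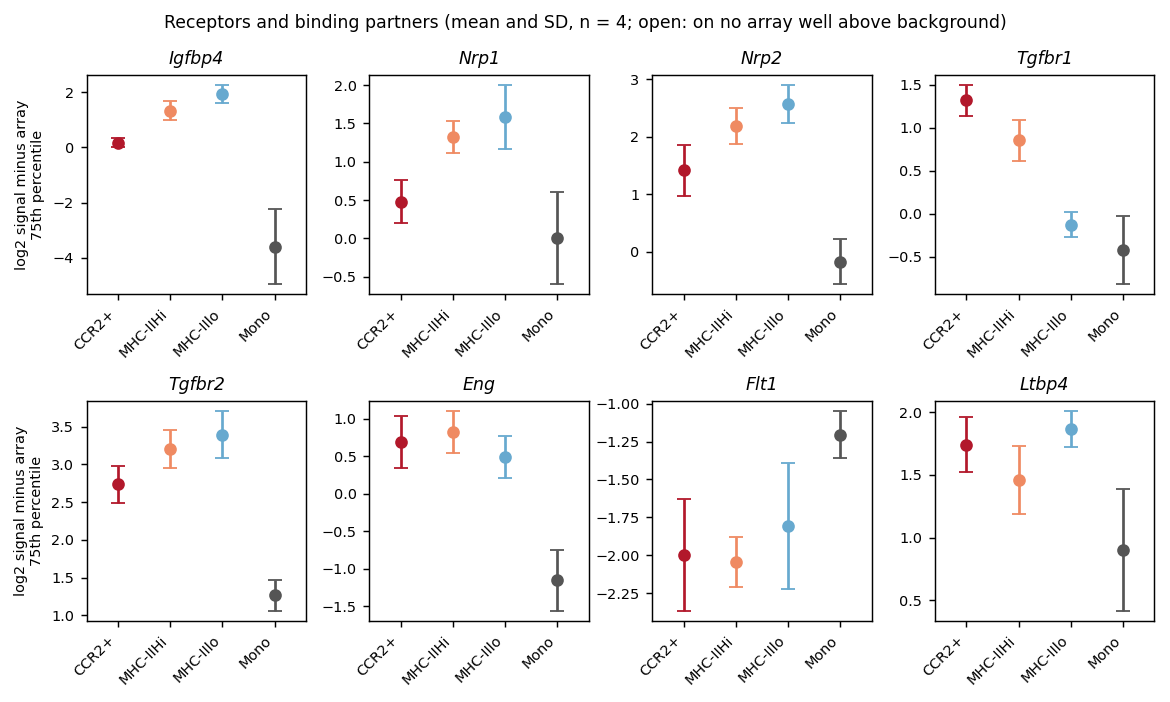
Normalised log2 signal (mean and SD of 4 arrays) of 8 receptors and binding partners by group; vertical axes differ between panels. Tgfbr1 has its highest mean in CCR2+ Mac, at 1.32, while Igfbp4, Nrp1 and Nrp2 have their highest means in MHC-IIlo Mac, at 1.95, 1.59 and 2.57.

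Proteases that release or activate growth factors were listed as 13 genes, of which 12 were tested. Against Ly6cHi Mono 4, 5 and 6 were higher and 1, 2 and 2 lower in CCR2+, MHC-IIHi and MHC-IIlo Mac, with medians of 0.27, 0.50 and 0.88 (0.22, 0.21 and 0.02 with dim genes at their bound). Adam17, a sheddase of EGF receptor ligands, was lower in each macrophage group, at 0.03 ± 0.27, 0.04 ± 0.38 and -0.12 ± 0.26 in CCR2+, MHC-IIHi and MHC-IIlo Mac, against 0.74 ± 0.25 in Ly6cHi Mono (adjusted p = 0.0346, 0.0372 and 0.0114). Adam8 was higher in CCR2+ than in MHC-IIHi Mac by 2.96 (adjusted p = 0.0145) and than in MHC-IIlo Mac by 2.57 (0.0182). The membrane-bound metalloprotease Mmp14 was higher in CCR2+ than in MHC-IIlo Mac by 2.78 (adjusted p = 0.00308). Mmp9 failed the above-background flag on all CCR2+ and all monocyte arrays, and it was at least 4.14-fold lower in CCR2+ than in MHC-IIHi Mac (adjusted p = 0.000985) and at least 3.66-fold lower than in MHC-IIlo Mac (0.000553).

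Of 38 other growth factor genes 27 were tested, and 7, 10 and 9 were higher than in Ly6cHi Mono and 0 lower in CCR2+, MHC-IIHi and MHC-IIlo Mac, with medians of 0.05, 0.30 and 0.27. With dim genes at their bound the medians were 0, 0.000731 and 0.02. Bmp2, a bone morphogenetic protein, was not well above background in monocytes and was at least 2.41-, 6.89- and 10.6-fold higher in CCR2+, MHC-IIHi and MHC-IIlo Mac (adjusted p of at most 4.84e-05). Bmp2 was lower in CCR2+ than in MHC-IIlo Mac by -2.13 (adjusted p = 0.00402), as were the matricellular factor Ccn1 by -2.88 (0.00238) and angiogenin, Ang, by -1.31 (called by the same test). Tgfb3 was higher than in Ly6cHi Mono by 1.38, 1.43 and 1.32 in CCR2+, MHC-IIHi and MHC-IIlo Mac (adjusted p of at most 0.000939), opposite in sign to Tgfb1.

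Genes induced by low oxygen, the class to which Vegfa belongs, were listed as 14, of which 11 were tested. In CCR2+, MHC-IIHi and MHC-IIlo Mac 1 was higher in each and 2, 3 and 3 were lower than in Ly6cHi Mono. The median differences of the 11 were 0.18, 0.18 and -0.23, so they did not share 1 sign. Of all genes, 21.7%, 21.4% and 21.3% were called in these comparisons, higher and lower together. Ndrg1 was at -1.81 ± 0.15 in CCR2+ Mac, -4.25 ± 1.30 in MHC-IIHi Mac and -3.53 ± 0.82 in MHC-IIlo Mac, against 0.23 ± 0.22 in Ly6cHi Mono, and was lower in each macrophage group (adjusted p of at most 0.00914). The glucose transporter Slc2a1 was higher in CCR2+ than in MHC-IIlo Mac by 0.77 (adjusted p = 0.0455).

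Other transcripts moved with the comparison between macrophages and monocytes, and their part in the differences of the ligands was not tested. Immediate early genes, which respond within a short time to stimuli such as tissue handling, were higher than in Ly6cHi Mono for 15, 16 and 15 of 18 in CCR2+, MHC-IIHi and MHC-IIlo Mac and lower for 0, 1 and 1, with medians of 2.92, 2.93 and 2.60. Against Ly6cHi Mono 21.7%, 21.4% and 21.3% of all genes were called, higher and lower together. Fosb averaged 4.76 ± 0.14, 4.65 ± 0.14 and 4.58 ± 0.41 in those groups, against -0.29 ± 0.24 in Ly6cHi Mono. The summed signal of the 18, in units of each array's 75th percentile, lay between 163 and 232 in CCR2+ Mac, 181 and 235 in MHC-IIHi Mac and 150.4 and 232 in MHC-IIlo Mac, against 39.2 to 57.4 in Ly6cHi Mono. Between macrophage groups 0 of the 18 passed in any pair, by limma, and the same summed ranges overlapped. Of all genes, 1.25% passed in CCR2+ minus MHC-IIHi Mac, 2.77% in CCR2+ minus MHC-IIlo Mac and 0.0682% in MHC-IIHi minus MHC-IIlo Mac.

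Markers of other heart cells were also higher in the sorted macrophages. Of the 7 cardiomyocyte markers tested, 6, 7 and 7 were higher than in Ly6cHi Mono, and their summed signal was 13.7 to 21.0 in CCR2+ Mac, 17.0 to 24.7 in MHC-IIHi Mac and 15.5 to 24.0 in MHC-IIlo Mac, against 2.10 to 2.60 in Ly6cHi Mono. Actc1, Tnnt2 and Ttn failed the above-background flag on all 4 monocyte arrays. Of 5 fibroblast markers 3 were higher in each macrophage group, with summed signals of 3.80 to 10.3, 4.75 to 9.49 and 7.31 to 10.2 in CCR2+, MHC-IIHi and MHC-IIlo Mac, against 1.18 to 1.39 in Ly6cHi Mono, and Dcn was at least 20.8-, 36.6- and 43.9-fold higher. Of 7 endothelial markers 5, 3 and 2 were higher, with summed signals of 6.79 to 9.42, 4.90 to 8.55 and 5.75 to 7.94, against 3.14 to 5.55 in Ly6cHi Mono. The endothelial range of MHC-IIHi Mac thus overlapped that of Ly6cHi Mono. Beside these counts, 9.97% of all genes were higher than in Ly6cHi Mono in CCR2+ Mac, 2208 of 21980 in MHC-IIHi Mac and 10.1% in MHC-IIlo Mac. Between macrophage groups 0 cardiomyocyte, fibroblast or endothelial markers passed in any pair. Of all genes, 1.25% passed in CCR2+ minus MHC-IIHi Mac, 2.77% in CCR2+ minus MHC-IIlo Mac and 0.0682% in MHC-IIHi minus MHC-IIlo Mac. With shares this small, 0 calls in such short lists do not show equal levels. Of the 6 dendritic cell markers tested, Dpp4 was higher in CCR2+ Mac, at -2.26 ± 0.15, than in MHC-IIHi Mac, at -4.10 ± 0.62 (adjusted p = 0.00542, limma), and MHC-IIlo Mac, at -3.59 ± 0.44 (adjusted p = 0.0256). It was above background on 4, 2 and 3 of the 4 arrays of these groups. Of the 5 neutrophil markers tested, Mmp9, which is also among the proteases above, was lower in CCR2+ Mac than in both. The part of these genes in the differences of Igf1 and Pdgfc was not tested. Of 7 markers of platelets, which carry PDGF, only Pf4 was higher in macrophages, and it was lower in CCR2+ than in MHC-IIlo Mac by -1.65 (adjusted p = 0.0124), while Ppbp was lower in all 3 macrophage groups than in Ly6cHi Mono, by -2.04, -2.09 and -2.09. Markers of neutrophils, dendritic cells and lymphocytes had their highest summed signals of any array, 1.90, 2.79 and 2.33, in Ly6cHi Mono. The neutrophil range there, from 1.37, overlapped that of MHC-IIlo Mac, at 0.79 to 1.65. The lymphocyte range, also from 1.37, overlapped those of all 3 macrophage groups. The dendritic range, from 2.61, overlapped none.

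The promoters of 6 of the 8 ligands were in the RefSeq table (GRCm38.p6), with 8 start sites between them. The 250 bases before the start are shown for Igf1, Pdgfa, Pdgfc and Tgfb1, because the first 3 were higher and the last was lower in macrophages. Capitals mark matches, on either strand, to TGANTCA (AP-1, the factor made of Fos and Jun proteins), GAGGAA (a core read by PU.1), GCGNGGGCG (EGR proteins), ACGTG (the hypoxia element core), TGCTGA (a MAF core) or GGGCGG (GC box). The GC box and the EGR motif overlap in some places. N stands for any base, so the AP-1 letters used here are looser than a site with C or G in that place.
Igf1 chr10:87860861-87861110 +: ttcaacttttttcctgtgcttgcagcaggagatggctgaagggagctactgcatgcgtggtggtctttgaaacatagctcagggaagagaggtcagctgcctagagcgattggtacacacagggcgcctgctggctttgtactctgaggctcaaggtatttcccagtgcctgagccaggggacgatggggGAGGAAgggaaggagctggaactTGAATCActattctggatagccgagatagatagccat
Pdgfa chr5:138994945-138995194 -: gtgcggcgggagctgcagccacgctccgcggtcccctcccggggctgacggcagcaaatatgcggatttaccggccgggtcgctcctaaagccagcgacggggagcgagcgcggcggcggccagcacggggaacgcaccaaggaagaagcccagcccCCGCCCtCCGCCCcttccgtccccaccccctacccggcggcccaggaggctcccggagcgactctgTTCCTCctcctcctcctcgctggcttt
Pdgfc chr3:81036166-81036415 +: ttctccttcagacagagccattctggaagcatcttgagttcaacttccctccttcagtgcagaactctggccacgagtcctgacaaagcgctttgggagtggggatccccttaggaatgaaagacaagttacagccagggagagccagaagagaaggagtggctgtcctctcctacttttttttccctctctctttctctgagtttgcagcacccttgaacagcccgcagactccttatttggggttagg
Tgfb1 chr7:25686752-25687001 +: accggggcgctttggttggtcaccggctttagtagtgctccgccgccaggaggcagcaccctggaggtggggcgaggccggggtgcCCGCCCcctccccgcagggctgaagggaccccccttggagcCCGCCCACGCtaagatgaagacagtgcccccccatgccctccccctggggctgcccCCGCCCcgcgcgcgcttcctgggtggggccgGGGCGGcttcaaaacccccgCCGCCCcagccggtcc
The Igf1 window held 1 PU.1 match and 1 match to the loose AP-1 letters, TGAATCA, with A at the open base. The Pdgfa window held 1 PU.1 match and 2 GC boxes, the Tgfb1 window 1 EGR match and 5 GC boxes, and the Pdgfc window no match. The other Pdgfa start held no PU.1 match and 1 GC box, and the Vegfb window, like that of Tgfb1, held 1 EGR match, with 4 GC boxes. Of the Vegfa starts, the upstream one (chr17:46032378-46032627, minus strand) held 1 PU.1 match, 2 GC boxes and no hypoxia core. The window of the other start (chr17:46025164-46025413) lies downstream of it, within the gene, and held 1 hypoxia core and 1 GC box. The bases around that core read in frame as Vegfa coding sequence, so it is no match in sequence upstream of the gene. Among 32851 promoters with 250 bases before the start, 6.75% held the AP-1 letters, 23.3% those of PU.1, 4.70% those of EGR, 16.6% the hypoxia core, 16.1% the MAF core and 32.7% the GC box. These are matches of letters in a window of sequence, given as a description.

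Across the 16 arrays, which fall apart by cell type, the transcripts with the pattern most like Igf1 were Mrc1 (Pearson r = 0.997), the mannose receptor of tissue macrophages, Arl4d (0.996) and Gpr34 (0.994). Those most like Pdgfa were Slamf9 (0.995), the immediate early gene Fosb (0.995) and Cttnbp2nl (0.993), and those most like Pdgfc were A4galt (0.969), Fcna (0.961) and Tcim (0.951). Tgfb1 was most like Ttc7 (0.980), Rpl18 (0.976) and Limd2 (0.975), and Vegfb most like Mill2 (0.968), Sorbs3 (0.962) and Peak1 (0.961). The closest transcripts to Pdgfb, Hbegf and Vegfa were H2-Q5 (0.955), Fstl1 (0.878) and Ifit2 (0.859). Among the 8 ligands themselves, Igf1 correlated with Pdgfa at 0.98 and with Vegfb at 0.93, and with Tgfb1 at -0.85.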

How the data were processed

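RNA was measured on 16 single-colour Agilent arrays. Per the file headers, the authors made the scanner files with Agilent Feature Extraction 11.5.1.1, and the processed signal used here is an intensity that is background-subtracted and detrended, with no scaling between arrays. The submitters' processing notes also name Partek, without version. The deposited value table holds log2 signal (every column median 8.12, method and centring not given in the sources used here) and served only to match columns to scanner arrays.

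In R 4.3.3, unmarked spots of a probe were averaged (110 of 39429 probes dropped) and log2 signal minus the array's 75th percentile was taken. Text columns were found by content, since headings were shifted in 15 of 16 files. Probes well above background on at least 4 of 16 arrays were kept (27643), the brightest standing for its gene. limma 3.58.1 fitted 4 group means over all 16 arrays (12 residual degrees of freedom, two-sided, Benjamini-Hochberg, called at adjusted p under 0.05). All 8 ligands and 15 probes passed the filter. 0 spots were saturated. Symbols came from the files, updated through RefSeq accessions for 27502 probes. On simulated data for CCR2+ against MHC-IIHi Mac (21980 genes, 200 changed), limma recovered 22% of changes of log2 size 1 and 72% of size 2, with 3 false calls.

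Replicate number equals slide. Deviations from the group means correlated at 0.138 to 0.638 between same-numbered arrays. Between differently numbered arrays of other groups they correlated at -0.535 to 0.492, a range that overlaps. The slide was used as a block in an alternative. The number of arrays limits the precision. The ligands and gene lists were chosen with earlier results of these data known. Named genes are all 8 ligands with every probe, list members with the smallest adjusted p in a comparison, and the 3 most correlated transcripts of each ligand. Further list genes were named after their values were seen.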

Additional observations from a re-analysis of the deposited data

How the results depend on the processing

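The alternatives were quantile normalization, median scaling, normexp background correction, no filter or a filter at 8 arrays, the mean of a gene's probes, the slide as a replicate block, a fit to the compared groups only, and leaving out each array in turn. A fit to compared groups only adds nothing for the mean of the 3 macrophage groups, which uses all groups. Testing each other probe by itself was added after seeing the data. The number of the 8 ligands called was 1 with the replicate block for CCR2+ minus MHC-IIHi Mac, against 0. For CCR2+ minus MHC-IIlo Mac it was 1 with median scaling, 1 with normexp and 1 in the fit to those groups, against 2. Against monocytes, normexp lost the calls of Pdgfc and Vegfa in CCR2+ Mac and of Pdgfc in MHC-IIHi Mac. Vegfa in CCR2+ Mac was also lost with quantile normalization and the mean of its probes. Pdgfb in MHC-IIlo Mac was lost with median scaling and in the fit to those groups. Leaving out 1 array gave 0 to 0, 1 to 2 and 0 to 0 calls in the 3 macrophage pairs and 6 to 7, 6 to 6 and 5 to 6 against monocytes, with 6 to 6 for the mean. The block changed no other call of a ligand.

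Calls over all genes moved more. For CCR2+ minus MHC-IIHi Mac, with 275 genes, there were 172 with median scaling, 551 with the replicate block, 181 in the fit to those groups and 153 to 342 on leaving out an array. For CCR2+ minus MHC-IIlo Mac, with 609, there were 380, 1256, 334 and 409 to 655. For MHC-IIHi minus MHC-IIlo Mac, with 15, there were 4, 77, 0 (760 at an unadjusted p under 0.05, limma) and 0 to 18. Against monocytes CCR2+ Mac had 8541 genes with no filter and 7416 with the replicate block, MHC-IIlo Mac 7077 with the block, and the mean of the 3 groups 9711 with no filter. Against monocytes leaving out an array gave 3821 to 5077, 3878 to 4878, 3974 to 4728 and, for the mean, 4992 to 6151. Of the calls, 2191 of 4760, 2208 of 4707 and 2223 of 4682 were higher in CCR2+, MHC-IIHi and MHC-IIlo Mac. There were 1555 of 5183, 1540 of 4325 and 1629 of 4807 under normexp, 2510 of 4596, 2379 of 4554 and 2385 of 4679 under quantile normalization, and 2376 of 8541, 2123 of 5120 and 2257 of 6763 with no filter. For the mean of the 3 groups there were 2736 of 6022, against 2005 of 6825 under normexp and 2843 of 9711 with no filter. The median of all genes for CCR2+ Mac was -0.25 under normexp, against -0.09. The cause was not tested.

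Sign changes occurred only in differences that did not pass either way. Pdgfa in CCR2+ minus MHC-IIHi Mac was 0.0247 with median scaling and 0.0172 by its other probe, and -0.125 to 0.0776 on leaving out an array. Tgfb1 was -0.00257 to 0.180 there and -0.0384 to 0.203 in MHC-IIHi minus MHC-IIlo Mac, where Vegfa was -0.0743 to 0.552. Vegfa with normexp was -0.182 in MHC-IIHi Mac, -0.335 in MHC-IIlo Mac and -0.0136 in the mean of the 3 groups against monocytes. In MHC-IIlo Mac it was also -0.0227 with quantile normalization, -0.0809 for the mean of its probes, -0.264 by its other probe and -0.157 to 0.468 on leaving out an array. Hbegf against monocytes was -0.0295 with median scaling and -0.0183 with normexp in MHC-IIHi Mac, and -0.0412, -0.0727 and -0.0754 with quantile normalization, median scaling and normexp in the mean of the 3 groups. On leaving out an array it was -0.136 to 0.175 in MHC-IIHi Mac, -0.0324 to 0.320 in MHC-IIlo Mac and -0.204 to 0.107 in the mean. Signal near background limits Vegfa, Pdgfc and the monocyte level of Igf1.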
